A study of Mus musculus with 8 samples.

Results

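The genes described here encode the proteins that choose and cut introns: the SR proteins and the kinases that phosphorylate them, the heterogeneous nuclear ribonucleoproteins (hnRNPs), the factors that recognise the 3' end of an intron, and the RBM family of RNA-binding proteins. Members were the protein-coding genes whose symbol begins with Srsf, Hnrnp, Srpk, Tra2, Sf3a, Sf3b, U2af, Rbm (Srsf and Rbm followed by a digit) or Srrm, or is Clk1, Clk2, Clk3, Clk4, Sf1 or Son, and whose mean over the 8 libraries was at least 0.5 FPKM (fragments per kilobase of exon, adjusted for how deeply each library was sequenced). That left 84 members out of 97 protein-coding genes with such symbols, in a table of 54532 genes of which 13171 passed the same level and were tested. The level was the measured value that chose them, so it is given as a description and supports nothing. Just above it stood Srpk3 at 0.522, Rbm41 at 0.571 and Rbm12b1 at 0.685 FPKM (mean over all libraries), and just under it Rbm4 at 0.495, Rbm24 at 0.464 and Rbm20 at 0.365 FPKM. The other 10 genes under the level, which were not members, were Rbm46, U2af1l4, Rbm11, Rbm42, Srsf12, Rbm8a2, Srrm4, Rbm44, Srrm3 and Rbm31y, the last of which was listed at 0 in every library.

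Brown adipose tissue, the fat that burns lipid for heat, was sequenced in 4 libraries labelled OGTBKO, a brown adipocyte-specific knockout of Ogt, and in 4 labelled WT. OGT attaches the sugar O-GlcNAc to serines and threonines of nuclear and cytoplasmic proteins, and OGA (symbol Mgea5 here) takes it off. The mice of both groups were kept at 23 °C on standard chow, and the protocol text common to both has them induced after 8 weeks with an agent spelt "gomaxifen" and the tissue taken 2 months later. What drives the knockout, which exons it removes, the sex of the mice and the alleles carried by WT mice: none of these is given in the sources used here, and the knockout bears on brown adipocytes while the RNA came from whole tissue. In such tissue, fewer cells of a type and less RNA per cell cannot be told apart. The labels number the samples without tying each to a separate animal, and the p-values therefore reflect only how far these libraries scatter.

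SR proteins bind exons and recruit the splicing machinery, and their activity depends on phosphates on the serines of their arginine-serine tails. SRPK kinases add phosphates in the cytoplasm and CLK kinases in the nucleus, which moves SR proteins in and out of nuclear speckles, while hnRNPs often bind the same transcripts with the opposite effect. Many of these genes restrain themselves: a retained intron or a "poison" exon in their own transcript sends it to nuclear retention or to nonsense-mediated decay, and in cultured human cells the level of O-GlcNAc has been tied to the splicing of such held introns, one in OGT itself among them.

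Ogt measured 10.7, 14.5, 12.8 and 11.8 FPKM in OGTBKO 1 to 4, against 33.1, 24.7, 23.9 and 22.5 FPKM in WT 1 to 4. All OGTBKO libraries lay under all WT libraries. The log2 change on the log2(FPKM + 0.5) scale, used for every log2 change here, was -1.03 ± 0.14 (SE; limma adjusted p = 0.00511; exact two-sided permutation p = 0.0286, the smallest that 4 against 4 allows). Mgea5 was lower too, at 7.24 ± 1.21 FPKM in OGTBKO and 13.3 ± 2.64 FPKM in WT (SD, n = 4 each; log2 change -0.83 ± 0.17 (SE), adjusted p = 0.0165), and its adjusted p was 0.0526 without WT 2. Reads in genes numbered 13393962 to 15897920 per library, and mitochondrial genes took 25.2% to 30.2% of them in OGTBKO and 27.2% to 39.4% in WT, the highest share being that of WT 3. All 8 brown adipocyte markers were measured above 0.5 FPKM on average, with summed levels of 2726 to 3116 FPKM in OGTBKO and 2786 to 4207 FPKM in WT, and 3 of the 8 were lower in OGTBKO. The summed level of the 4 white adipose markers was 154.56 to 202 FPKM in OGTBKO and 51.4 to 123 FPKM in WT (exact permutation p = 0.0286, and 0.248 after Benjamini-Hochberg adjustment over 13 marker lists). The 4 B cell and 4 T cell markers were all under 0.5 FPKM on average, and the summed level of 11 skeletal muscle markers (Myh7 and Tnnc2 were under 0.5 FPKM on average) was 1457 FPKM in OGTBKO 1 and 538 FPKM in WT 1, against 20.3 to 58.5 FPKM in the other libraries.

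Among the 84 members, 6 were higher in OGTBKO (Rbm34, Rbm28, Hnrnpab, Rbm17, Rbm8a and Hnrnpa0) and 11 were lower (Tra2a, Rbm5, Son, Rbm41, Clk3, Hnrnph2, Srsf10, Rbm39, Rbm15, Rbm27 and Sf3b1), by limma with an adjusted p under 0.05. Rbm41 reached the level only through its WT libraries, so its direction is tied to that filter. At a level of 1 FPKM, where Rbm41 was not tested, 6 members were higher and 10 lower. These were 20% of the members, beside 18.4% of all 11225 genes at that level (1057 higher and 1010 lower). At the level of 0.5 FPKM the 17 calls were 20.2% of the members, beside 15.6% of all genes tested and 16.0% of the protein-coding genes tested. By direction, 7.14% of the members were higher and 13.1% lower, beside 8.11% and 7.46% of all genes tested, a share near the background on the higher side and above it on the lower side. The groups did not overlap for 6 members with OGTBKO above WT and 14 with OGTBKO below (22.5% of all genes tested did not overlap, 11.1% with OGTBKO above and 11.4% below). The median log2 change of the members was -0.067, beside -0.0021 for all genes tested, and no member changed by 2-fold or more. An unadjusted p under 0.05 was found for 25 of the 84 members, 8 higher and 17 lower. Of all 13171 genes tested 32.8% had such a p, 2201 higher and 2114 lower. The lower calls depended on how the values were scaled. With each library's trend over GC content and transcript length removed, the same fit called 6 members higher and 1 lower (6.24% and 4.32% of all genes). When FPKM was recomputed on library totals the fit called 5 higher and 0 lower (7.44% and 1.89% of all genes), with 7 members lower at an unadjusted p under 0.05. Under that scaling the members' median was 0.033 and that of all genes 0.093. Without WT 1 and WT 3, chosen after seeing the data because they stood apart for the members, 6 members were called higher and 9 lower (7.6% and 7.29% of all genes), and without WT 1 and OGTBKO 1, the libraries with the highest skeletal muscle markers of their groups, 5 higher and 5 lower (7.68% and 6.89%).

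**Figure D1:**
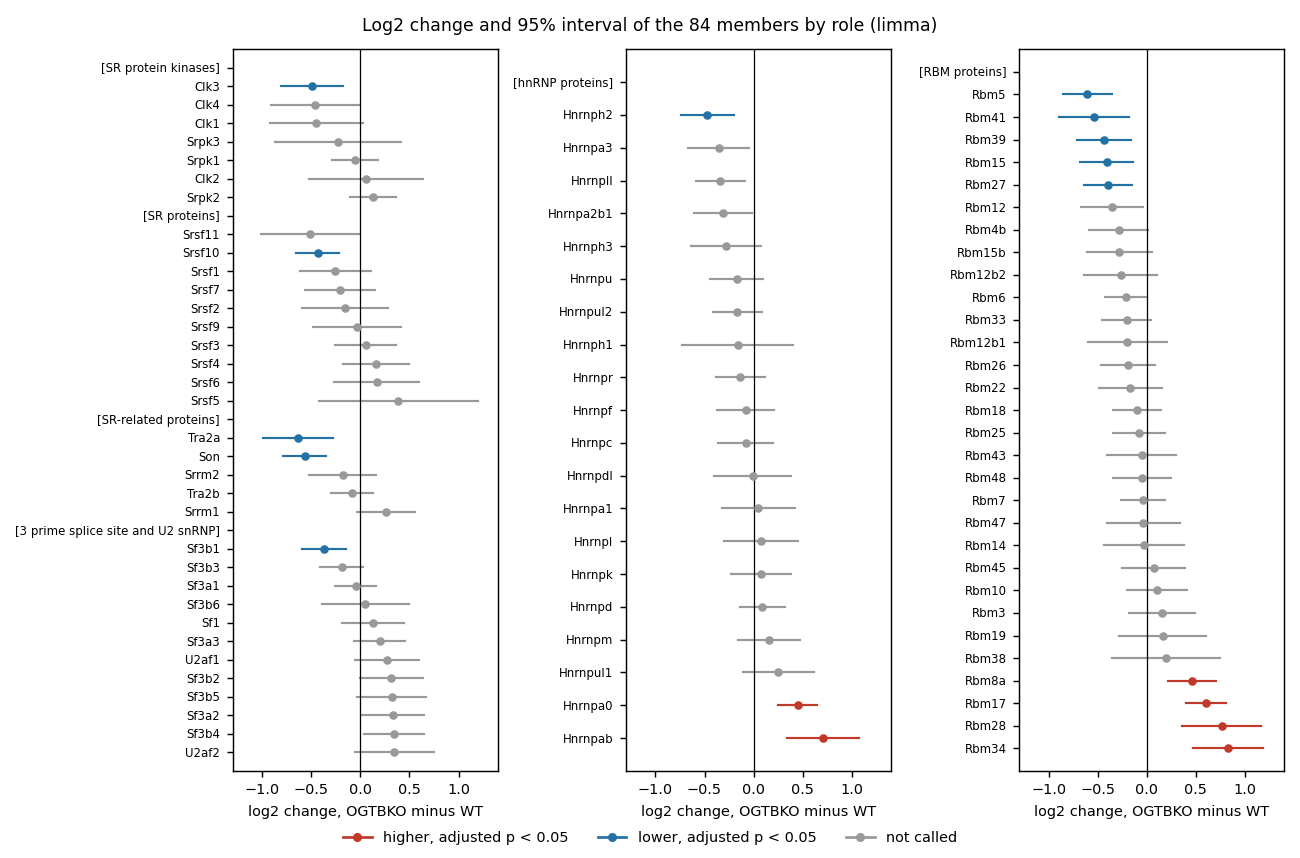
Log2 change, OGTBKO minus WT, on log2(FPKM + 0.5) for each of the 84 members, grouped by role; points are limma estimates, bars 95% intervals, red and blue points members called higher or lower at an adjusted p under 0.05. Most intervals cross 0, and the called changes run from -0.63 (Tra2a) to 0.82 (Rbm34).

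To show the DNA in front of the members with the smallest p in each direction, the 250 bases before the RefSeq start of 3 higher and 3 lower genes are printed from RefSeq's GRCm38.p6 sequence, each on its gene's strand and 5' to 3'. They lie at chr2:11603200-11603449 (minus strand), chr8:126971050-126971299 (minus), chr13:58128557-58128806 (minus), chr16:91647574-91647823 (plus), chr9:107771003-107771252 (minus) and chr4:135855821-135856070 (plus). The RefSeq start is not always the start in the deposited gene coordinates. By those coordinates the windows of Rbm17, Son and Srsf10 lie inside the gene, and that of Rbm34 overlaps its first bases. Capitals mark every match on either strand to 4 short promoter motifs. One is the CCAAT box, whose letters are its name, and another the GC box with the letters GGGCGG. The third is an element read by the ETS family of transcription factors and searched as the letters CCGGAAG. Last comes the TATA box, for which the search used the letters TATAAA.
Rbm17 (higher): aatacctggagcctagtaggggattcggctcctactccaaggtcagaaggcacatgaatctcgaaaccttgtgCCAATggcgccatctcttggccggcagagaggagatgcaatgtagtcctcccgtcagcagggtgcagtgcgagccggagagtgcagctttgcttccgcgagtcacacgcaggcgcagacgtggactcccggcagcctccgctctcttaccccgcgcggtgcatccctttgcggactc
Rbm34 (higher): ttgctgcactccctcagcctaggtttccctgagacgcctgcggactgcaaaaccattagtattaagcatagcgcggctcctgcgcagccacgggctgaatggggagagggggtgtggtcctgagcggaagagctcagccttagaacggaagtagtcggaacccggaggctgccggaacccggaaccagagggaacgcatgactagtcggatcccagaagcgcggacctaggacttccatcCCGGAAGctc
Hnrnpa0 (higher): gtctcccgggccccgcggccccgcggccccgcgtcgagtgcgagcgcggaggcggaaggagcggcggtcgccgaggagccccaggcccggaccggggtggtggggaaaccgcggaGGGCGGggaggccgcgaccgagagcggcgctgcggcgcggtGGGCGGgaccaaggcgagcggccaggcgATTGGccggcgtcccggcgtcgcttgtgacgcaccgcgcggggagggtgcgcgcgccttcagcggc
Son (lower): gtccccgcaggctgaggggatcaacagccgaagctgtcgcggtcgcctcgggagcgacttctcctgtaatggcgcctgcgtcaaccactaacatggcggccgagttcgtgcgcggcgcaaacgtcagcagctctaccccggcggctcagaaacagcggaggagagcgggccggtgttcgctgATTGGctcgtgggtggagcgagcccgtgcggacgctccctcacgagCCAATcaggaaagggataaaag
Rbm5 (lower): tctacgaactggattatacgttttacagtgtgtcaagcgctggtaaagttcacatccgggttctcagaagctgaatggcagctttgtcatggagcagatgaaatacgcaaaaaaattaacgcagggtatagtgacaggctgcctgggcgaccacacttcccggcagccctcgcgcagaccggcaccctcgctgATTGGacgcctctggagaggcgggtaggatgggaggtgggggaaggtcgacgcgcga
Srsf10 (lower): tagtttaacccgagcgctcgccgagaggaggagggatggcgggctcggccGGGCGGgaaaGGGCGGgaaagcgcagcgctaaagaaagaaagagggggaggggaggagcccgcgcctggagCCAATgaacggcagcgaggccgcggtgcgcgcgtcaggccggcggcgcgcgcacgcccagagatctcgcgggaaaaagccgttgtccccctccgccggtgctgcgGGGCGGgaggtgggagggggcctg
Counted by gene, the CCAAT box matched in most of the printed sequences (Rbm17, Hnrnpa0, Son, Rbm5 and Srsf10). The GC box matched in Hnrnpa0 and Srsf10, and Rbm34 held an ETS match. Of the 84 members, 72 had a promoter window in the table (300 bases, 250 before to 50 after the start; 93 windows in all); Clk1, Hnrnpll, Hnrnpul2, Rbm12b1, Rbm12b2, Rbm22, Rbm27, Rbm3, Rbm8a, Sf3b4, Sf3b5 and U2af2 had none. Over those windows a GC box stood in 64.52% of the members' and 35.66% of all 32851 windows, a CCAAT box in 45.16% and 37.41%, an ETS element in 23.66% and 8.858%, and a TATA box in 10.75% and 13.62%. Of the 5 windows of members called higher, 80% held a GC box and 60% a CCAAT box. Of the 11 windows of members called lower, 54.55% held a GC box and 72.73% a CCAAT box. The members' windows were also richer in G and C than all windows, with a median of 63.33% beside 52.67%. The 32851 windows belong to 27025 genes taken whatever their level here, while members had to reach 0.5 FPKM. The part of that unlike choice in these differences was not tested. A match describes letters in a window and says nothing of a factor being bound there.

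Of the 7 SR protein kinases, Clk3 was lower in OGTBKO and the other 6 did not pass the test. The called shares were 0% higher and 14.3% lower, beside 8.11% and 7.46% of all genes tested. Clk3, a nuclear kinase of SR proteins, measured 2.95, 2.73, 2.65 and 2.33 FPKM in OGTBKO 1 to 4, against 5.02, 4.15, 3.09 and 3.75 FPKM in WT 1 to 4. Every OGTBKO library lay below every WT library. Its log2 change was -0.49 ± 0.14 (SE; adjusted p = 0.0435), and the call was lost without any 1 library other than WT 3 (adjusted p up to 0.111). It was -0.49 (adjusted p = 0.0815) with the trend over GC content and length removed, and 15.2% of the exon bases of Clk3 are shared with the neighbouring gene Edc3. Clk1 and Clk4, close relatives whose transcripts are known to be held in the nucleus with introns unspliced, did not pass. Clk1 measured 5.59, 8.36, 8.71 and 9.99 FPKM in OGTBKO and 15.3, 11.5, 8.24 and 10.4 FPKM in WT, a log2 change of -0.45 ± 0.21 (95% interval -0.92 to 0.029; adjusted p = 0.176). Clk4 measured 4.44, 5.79, 6.24 and 5.80 FPKM in OGTBKO and 10.3, 8.04, 5.05 and 8.74 FPKM in WT, a log2 change of -0.46 ± 0.20 (95% interval -0.91 to -0.013; adjusted p = 0.143). In both genes WT 3 fell inside the OGTBKO range and WT 1 was the highest library. Without WT 1 and WT 3 Clk4 had an adjusted p of 0.0450, while without WT 1 and OGTBKO 1 its log2 change was -0.24 and that of Clk1 -0.14.

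Clk2 spread more within WT than between the groups, at 1.85, 2.03, 2.78 and 2.11 FPKM in OGTBKO, against 3.29, 1.78, 1.07 and 2.71 FPKM in WT (log2 change 0.056 ± 0.26, 95% interval -0.52 to 0.64). The cytoplasmic kinases Srpk1 and Srpk2 had log2 changes of -0.052 ± 0.10 (95% interval -0.29 to 0.18) and 0.13 ± 0.10 (95% interval -0.11 to 0.36), and Srpk2 passed as higher once the trend over GC content and length was removed (log2 change 0.45, adjusted p = 0.0434). Srpk3, the kinase that mice express mainly in heart and skeletal muscle, was 1.14, 0.245, 0.360 and 0.155 FPKM in OGTBKO and 0.648, 0.552, 0.441 and 0.637 FPKM in WT. Its one high value came from OGTBKO 1, the library with 1457 FPKM of skeletal muscle markers, and Rbm24, a muscle splicing factor under the level for membership, was also highest there (1.67 FPKM) and in WT 1 (1.24 FPKM), against at most 0.267 FPKM elsewhere. Without WT 1 and OGTBKO 1 the log2 change of Srpk3 was -0.47 (adjusted p = 0.151), against -0.23 ± 0.29 (adjusted p = 0.623) with all libraries. The median log2 change of the 7 kinases was -0.23 as reported, -0.18 with the library total as denominator, -0.13 with the trend over GC content and length removed and -0.47 with voom weights on back-calculated reads. Whether the kinases differed from one another was not tested.

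**Figure D2:**
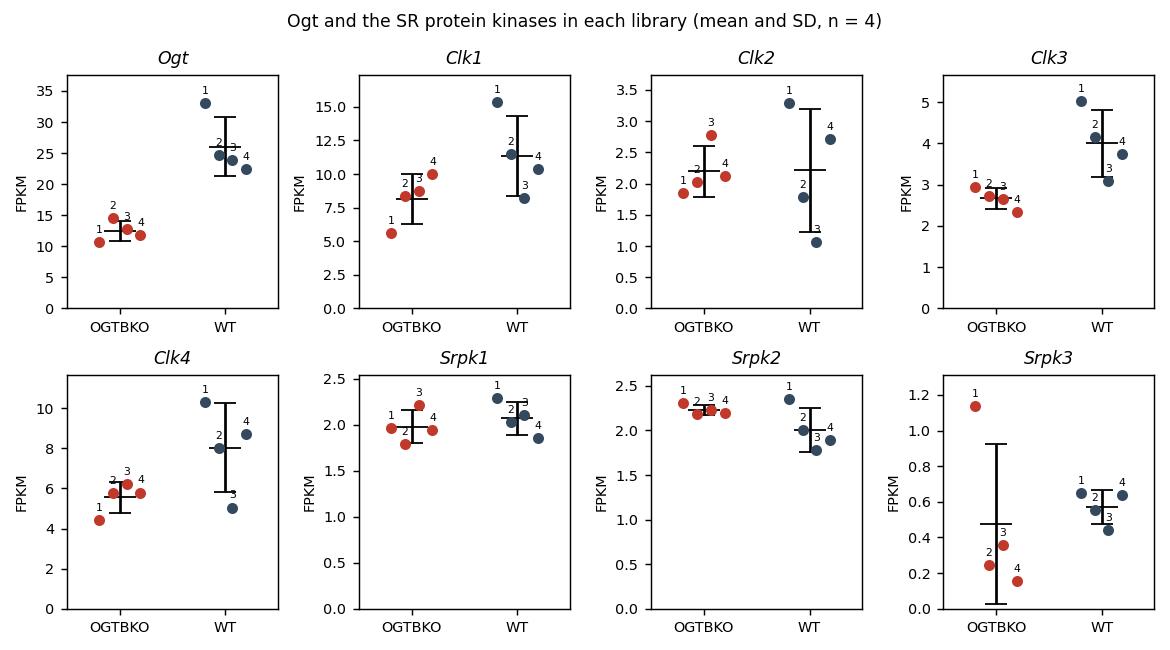
FPKM of Ogt and of the 7 SR protein kinases in each of the 8 libraries (numbered points, OGTBKO left of WT), with the mean and SD of each group of 4; each panel has its own axis, from 0. Ogt and Clk3 separate the groups, WT 1 is the highest WT library in every panel, Srpk3 has its highest value in OGTBKO 1, and Clk2 spreads widely within WT.

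Of the 10 SR proteins, Srsf10 was lower in OGTBKO and the other 9 did not pass. That made 0% higher and 10% lower, beside 8.11% and 7.46% of all genes tested. Srsf10, an SR protein that represses splicing when dephosphorylated and that mouse preadipocytes need to become fat cells, measured 9.75, 10.99, 11.6 and 11.7 FPKM in OGTBKO, against 13.7, 16.1, 15.0 and 15.3 FPKM in WT. No OGTBKO library reached the WT range. This gave a log2 change of -0.43 ± 0.097 (SE; adjusted p = 0.0208), and the call was lost without OGTBKO 2, OGTBKO 3, WT 2 or WT 4 (adjusted p up to 0.0664) and with the trend over GC content and length removed (log2 change -0.19, adjusted p = 0.184). Srsf11, which has a diverged RNA-binding domain, scattered more, with 8.98, 13.0, 13.7 and 11.2 FPKM in OGTBKO and 24.7, 16.8, 11.4 and 16.5 FPKM in WT (log2 change -0.51 ± 0.22, adjusted p = 0.140). Its groups overlapped, with OGTBKO 1 lowest and WT 1 highest. Srsf5 measured 24.1, 29.9, 30.2 and 25.6 FPKM in OGTBKO, against 40.4, 21.8, 9.24 and 22.5 FPKM in WT, where WT 1 and WT 3 lay far outside the OGTBKO range on either side (log2 change 0.39 ± 0.36, 95% interval -0.42 to 1.19).

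The founding SR proteins showed no passing difference. Srsf1, the first described, averaged 15.4 ± 1.64 FPKM in OGTBKO and 18.7 ± 3.91 FPKM in WT (SD, n = 4 each; 95% interval of the log2 change -0.61 to 0.11). Srsf2, the speckle protein SC35, averaged 27.3 ± 3.70 FPKM in OGTBKO and 31.1 ± 8.12 FPKM in WT (95% interval -0.59 to 0.28), with 25.3% of its exon bases shared with Mettl23. Srsf3 and Srsf7, which also help to export messenger RNA, had log2 changes of 0.056 ± 0.14 and -0.21 ± 0.16. Srsf4 and Srsf6, which have long arginine-serine tails, had 0.16 ± 0.15 and 0.17 ± 0.19, and Srsf9, a close relative of Srsf1, had -0.032 ± 0.20; 43.0% of the exon bases of Srsf4 are shared with the gene model Gm12992. The median over the 10 SR proteins was -0.094 as reported and 0.016 with the library total as denominator, so the sign of this small median depends on the scaling. The median of all genes tested moved too, from -0.0021 to 0.093, and the SR protein median lay below it in both fits.

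Of the 5 SR-related proteins, Tra2a and Son were lower and Srrm1, Srrm2 and Tra2b did not pass. In this short list 0% were higher and 40% lower, beside 8.11% and 7.46% of all genes tested. Son, a very large protein that with Srrm2 holds nuclear speckles together, measured 17.5, 15.9, 15.3 and 15.2 FPKM in OGTBKO, against 25.9, 24.1, 24.3 and 21.3 FPKM in WT. All OGTBKO libraries were close together and below all WT libraries. For Son the log2 change was -0.57 ± 0.097 (SE; adjusted p = 0.00941), and each single library could be left out without losing the call (adjusted p up to 0.0357). Son was the 1 member still called lower once the trend over GC content and length was removed (log2 change -0.44, adjusted p = 0.0209). With the library total as denominator it was -0.45 (adjusted p = 0.0635). Tra2a, which promotes the inclusion of exons with GAA repeats, measured 3.75, 4.79, 5.72 and 4.71 FPKM in OGTBKO, against 9.29, 7.02, 5.96 and 8.39 FPKM in WT. The groups did not overlap, although OGTBKO 3 came close to WT 3. Its log2 change of -0.63 ± 0.16 (SE; adjusted p = 0.0302) was the largest fall among the members, and the call was lost without OGTBKO 1, OGTBKO 2, OGTBKO 4, WT 1, WT 2 or WT 4 (adjusted p up to 0.0731). It was -0.47 (adjusted p = 0.107) with the trend over GC content and length removed.

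Tra2b, the paralog of Tra2a, averaged 4.93 ± 0.437 FPKM in OGTBKO and 5.26 ± 0.314 FPKM in WT, a log2 change of -0.085 ± 0.095 (95% interval -0.30 to 0.13). Srrm2, the other speckle scaffold, measured 23.8, 19.0, 19.9 and 19.4 FPKM in OGTBKO and 31.7, 21.4, 20.9 and 20.6 FPKM in WT (log2 change -0.18 ± 0.15, adjusted p = 0.448). WT 1 alone stood above the rest for Srrm2. Srrm1, a coactivator that bridges SR proteins and the core machinery, had a log2 change of 0.26 ± 0.13 (adjusted p = 0.196).

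Among the 12 factors of the 3' splice site and the U2 particle, Sf3b1 was lower, none was higher, and 9 of the 12 had a log2 change above 0. Called shares were 0% higher and 8.33% lower, beside 8.11% and 7.46% of all genes tested. Sf3b1, the large subunit that clamps the branch point adenosine, measured 14.2, 16.0, 15.5 and 16.2 FPKM in OGTBKO, against 23.0, 19.4, 20.2 and 18.3 FPKM in WT. WT 1 was the highest library, and the groups did not overlap. The log2 change was -0.37 ± 0.10 (SE; adjusted p = 0.0366), and the call was lost when any 1 of the 8 libraries was left out (adjusted p 0.0505 to 0.0918). The log2 change of Sf3b1 was -0.10 (adjusted p = 0.519) with the trend over GC content and length removed. The other subunits of its complex did not pass: Sf3b3 had a log2 change of -0.19 ± 0.096 and Sf3b6, which touches the branch point, 0.049 ± 0.20. The scaffold subunit Sf3b2, with Sf3b4 and Sf3b5, had 0.31 ± 0.14 (adjusted p = 0.162), 0.34 ± 0.14 (adjusted p = 0.117) and 0.32 ± 0.16 (adjusted p = 0.186). Sf3a1, Sf3a2 and Sf3a3, the companion complex of U2, had -0.048 ± 0.093, 0.33 ± 0.14 and 0.20 ± 0.12.

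U2af1 and U2af2, the pair that reads the intron's last bases and the pyrimidine tract before them, had log2 changes of 0.27 ± 0.15 and 0.34 ± 0.18 with overlapping groups. U2af2 measured 8.85, 8.58, 10.2 and 8.03 FPKM in OGTBKO and 9.68, 6.28, 4.96 and 7.39 FPKM in WT, where WT 3 was lowest and WT 1 above all but 1 OGTBKO library. Sf1, which holds the branch point before U2 arrives, averaged 11.5 ± 1.39 FPKM in OGTBKO and 10.5 ± 1.87 FPKM in WT (log2 change 0.13 ± 0.14). At an unadjusted p under 0.05, 2 of the 12 stood on the higher side and 1 on the lower. Their median log2 change was 0.23 as reported, 0.34 with the library total as denominator and 0.095 with the trend over GC content and length removed, where 0 of the 12 passed (1 higher and 0 lower at an unadjusted p under 0.05).

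Of the 20 hnRNP genes, Hnrnpab and Hnrnpa0 were higher, Hnrnph2 was lower, and 17 did not pass. That made 10% higher and 5% lower, beside 8.11% and 7.46% of all genes tested. Hnrnpab, which binds messenger RNAs and helps to transport them, measured 28.6, 16.6, 23.5 and 20.1 FPKM in OGTBKO, against 12.7, 11.7, 14.6 and 13.7 FPKM in WT. The groups did not overlap, with OGTBKO 2 nearest to WT and OGTBKO 1 highest. Hnrnpab had a log2 change of 0.71 ± 0.16 (SE; adjusted p = 0.0229). The call was lost without OGTBKO 3 or WT 2 (adjusted p up to 0.0704). Of its exon bases 29.1% are shared with Phykpl. Hnrnpa0, which binds AU-rich elements of messenger RNAs, measured 25.2, 24.4, 23.6 and 21.6 FPKM in OGTBKO, against 18.05, 17.4, 16.6 and 16.7 FPKM in WT. Again the groups did not overlap, and no library stood apart. Its log2 change was 0.45 ± 0.088 (SE; adjusted p = 0.0137), kept in every fit that left out 1 library (adjusted p up to 0.0463), but 0.27 (adjusted p = 0.0583) with the trend over GC content and length removed.

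Hnrnph2, one of the proteins that bind runs of G, measured 7.65, 7.85, 7.66 and 8.01 FPKM in OGTBKO, against 12.8, 11.02, 8.76 and 11.8 FPKM in WT. The groups did not overlap. Its log2 change was -0.47 ± 0.12 (SE; adjusted p = 0.0304), lost without any 1 library other than WT 3 (adjusted p up to 0.0826). It was -0.27 (adjusted p = 0.166) with the trend over GC content and length removed and -0.36 (adjusted p = 0.243) with the library total as denominator. The next largest negative values, none of which passed, were those of Hnrnpa3 (-0.36 ± 0.14, adjusted p = 0.110), Hnrnpll (-0.34 ± 0.11, adjusted p = 0.06997) and Hnrnpa2b1 (-0.31 ± 0.13, adjusted p = 0.132). Hnrnpa2b1 was the most abundant member of all per length of transcript, at 43.5 ± 4.12 FPKM in OGTBKO and 54.3 ± 7.75 FPKM in WT. On the positive side stood Hnrnpul1 (0.25 ± 0.16, adjusted p = 0.312) and Hnrnpm (0.16 ± 0.14, adjusted p = 0.474). The median over the 20 was -0.082 as reported, 0.030 with the library total as denominator and 0.10 with the trend over GC content and length removed, so its sign depends on the scaling. Over all genes tested the medians were -0.0021, 0.093 and 0.0062 in that order. The hnRNP median lay below that of all genes in the first 2 fits and above it in the last.

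The 30 RBM genes, a family named for an RNA-binding motif and otherwise diverse in function, gave 4 higher, 5 lower and 21 that did not pass. The called shares were 13.3% higher and 16.7% lower, beside 8.11% and 7.46% of all genes tested. Among the higher ones Rbm34 and Rbm28, nucleolar proteins whose yeast counterparts Nop12 and Nop4 act in making the large ribosomal subunit, changed most. Rbm34 measured 2.92, 3.36, 3.41 and 3.44 FPKM in OGTBKO, against 2.21, 1.88, 1.12 and 1.48 FPKM in WT. The groups were well apart, the lowest OGTBKO library lying above the highest WT library. Its log2 change of 0.82 ± 0.16 (SE; adjusted p = 0.0132) was the largest rise among the members and the only call kept under all 21 alternative settings. Rbm28 measured 6.88, 6.98, 10.1 and 8.30 FPKM in OGTBKO, against 6.14, 3.61, 3.82 and 4.78 FPKM in WT. Its groups did not overlap either, but OGTBKO 3 stood high and WT 1 came close to the OGTBKO libraries. The log2 change was 0.76 ± 0.18 (SE; adjusted p = 0.0241), lost without OGTBKO 3, OGTBKO 4 or WT 2 (adjusted p up to 0.0704).

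Rbm17, also called SPF45, a factor that can stand in at the 3' splice site of short introns in human cells, measured 11.8, 10.4, 11.5 and 11.6 FPKM in OGTBKO, against 7.77, 7.44, 6.64 and 7.25 FPKM in WT. Each group was compact, without overlap. For Rbm17 the log2 change was 0.60 ± 0.090 (SE; adjusted p = 0.00613), and the call was kept without any 1 library (adjusted p up to 0.0261) and with the trend over GC content and length removed (log2 change 0.48, adjusted p = 0.0124). Rbm8a (Y14) forms the core of the exon junction complex, the mark that splicing leaves on messenger RNA, together with MAGOH and EIF4A3. It measured 3.83, 3.73, 4.20 and 4.09 FPKM in OGTBKO, against 2.92, 2.80, 2.23 and 3.10 FPKM in WT, with no overlap and a log2 change of 0.46 ± 0.11 (SE; adjusted p = 0.0262) that lost its call without OGTBKO 2, OGTBKO 3, OGTBKO 4 or WT 2 (adjusted p up to 0.0802).

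Rbm5, which in human cells shifts the splicing of cell-death genes, measured 3.46, 3.72, 4.41 and 3.42 FPKM in OGTBKO, against 6.58, 6.39, 5.29 and 5.58 FPKM in WT. OGTBKO 3 was nearest to WT, without overlap. The log2 change was -0.60 ± 0.11 (SE; adjusted p = 0.0115), kept without any 1 library (adjusted p up to 0.0410), but -0.34 (adjusted p = 0.129) with the trend over GC content and length removed. Its relatives Rbm6 and Rbm10, named for that kinship after their values were seen, had log2 changes of -0.21 ± 0.095 (adjusted p = 0.163) and 0.10 ± 0.14 (adjusted p = 0.653). Rbm39, a U2AF-related factor and the most abundant RBM gene per length here, measured 17.2, 20.95, 21.3 and 20.9 FPKM in OGTBKO, against 32.8, 26.01, 26.8 and 23.9 FPKM in WT. OGTBKO 1 was set apart on the low side and WT 1 on the high side, and the groups did not overlap. The log2 change was -0.43 ± 0.12 (SE; adjusted p = 0.0439), and the call was lost when any 1 of the 8 libraries was left out (adjusted p 0.0526 to 0.0900). The value for Rbm39 was -0.23 (adjusted p = 0.244) with the trend over GC content and length removed.

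Rbm15, an adaptor of the enzyme that writes N6-methyladenosine, measured 2.71, 2.75, 2.83 and 3.21 FPKM in OGTBKO, against 3.14, 4.14, 4.35 and 4.38 FPKM in WT (log2 change -0.41 ± 0.12, adjusted p = 0.0478). It was the only called member whose groups overlapped, OGTBKO 4 lying above WT 1. Rbm27, a partner of the nuclear exosome, measured 3.86, 3.89, 3.43 and 4.20 FPKM in OGTBKO, against 4.44, 5.65, 5.80 and 5.10 FPKM in WT (log2 change -0.40 ± 0.11, adjusted p = 0.0385), with no overlap. Both lost their calls without any 1 library other than WT 1 (adjusted p up to 0.119 for Rbm15 and 0.112 for Rbm27). With the trend over GC content and length removed their log2 changes were -0.22 (adjusted p = 0.203) for Rbm15 and -0.19 (adjusted p = 0.220) for Rbm27. Rbm41, the least abundant called member and a protein of the minor spliceosome in human cells, measured 0.422, 0.393, 0.277 and 0.4004 FPKM in OGTBKO, against 0.815, 0.789, 0.640 and 0.8293 FPKM in WT (log2 change -0.54 ± 0.16, adjusted p = 0.0475). Its groups did not overlap, and the call was lost without any 1 library other than WT 3 (adjusted p up to 0.120) and with the trend over GC content and length removed (log2 change -0.23, adjusted p = 0.374). Its mean was 0.373 ± 0.0655 FPKM in OGTBKO, under the level of 0.5 FPKM, and 0.768 ± 0.0870 FPKM in WT (SD, n = 4 each), so it was tested only because WT was high. The 21 RBM genes that did not pass ran from -0.36 ± 0.14 (Rbm12) to 0.19 ± 0.24 (Rbm38) on the log2 scale. The median over the 30 was -0.090 as reported and 0.014 with the library total as denominator, beside -0.0021 and 0.093 for all genes tested. With the trend over GC content and length removed 4 passed as higher and 0 as lower (5 higher and 2 lower at an unadjusted p under 0.05).

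**Figure D3:**
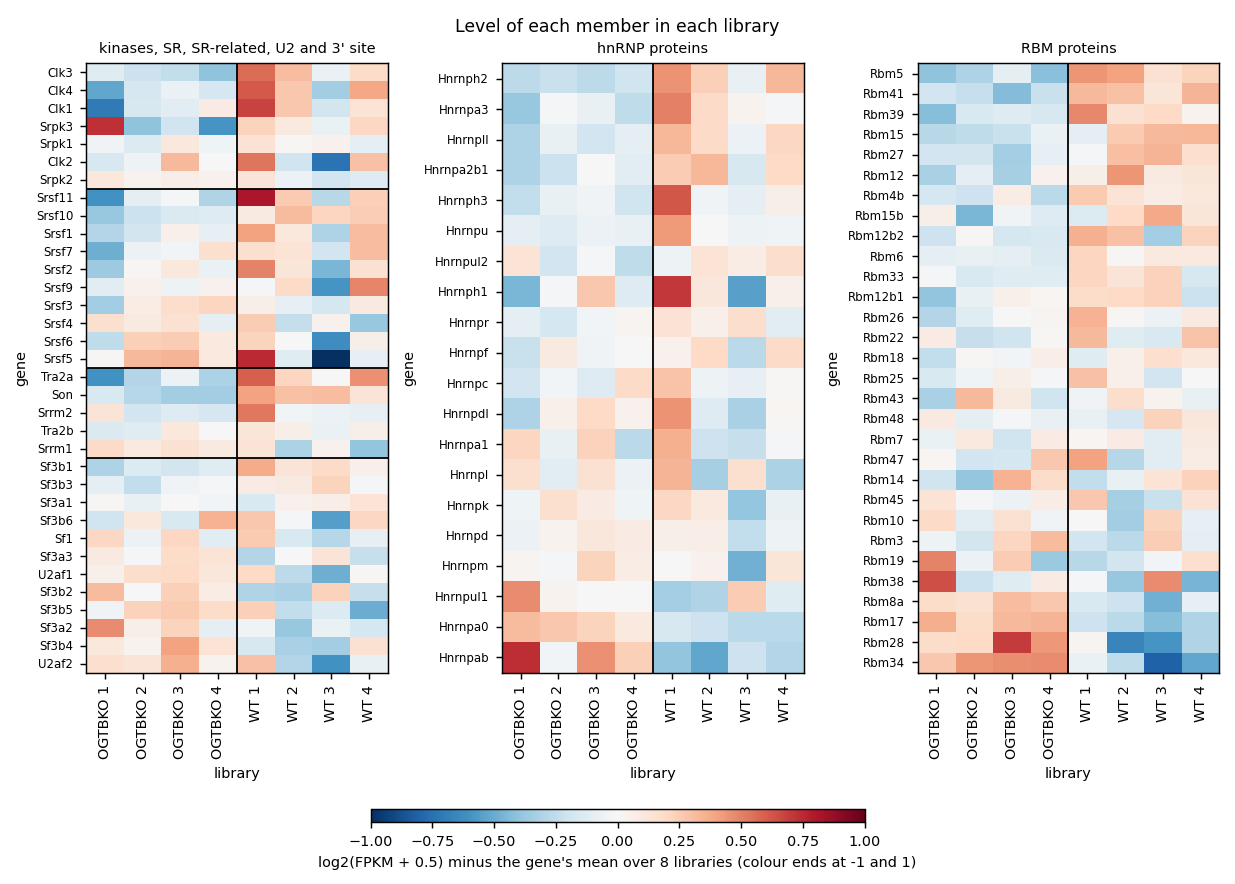
Level of each of the 84 members in each library as the difference of log2(FPKM + 0.5) from the gene's mean over the 8 libraries (colour, limited to -1 and 1), OGTBKO columns left of WT columns, members ordered by role and by log2 change. Most called members change colour at the line between the groups, and many rows of kinases, SR proteins and hnRNPs are reddest in WT 1 and bluest in WT 3 among the WT columns.

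Members also varied between libraries of the same group. OGTBKO 1 was the lowest of its group for 39 members (46.4%, beside 29.5% of all genes tested) and OGTBKO 3 the highest for 32 (38.1%, beside 20.8%). WT 1 was the highest of the WT libraries for 50 members (59.5%, beside 27.5% of all genes tested), and WT 3 the lowest for 46 (54.8%, beside 30.5%). Both held together for 35 members (41.7%, beside 13.2%), among them 6 of the 7 kinases, 5 of the 10 SR proteins and 10 of the 20 hnRNPs, but 8 of the 30 RBM genes. The median deviation of the members from their own mean was -0.094, -0.072, -0.0025 and -0.016 on the log2 scale in OGTBKO 1 to 4 and 0.21, 0.028, -0.067 and 0.058 in WT 1 to 4, so the members ran highest in WT 1. For the 3 members that spread most within WT, the ratio of the highest to the lowest library was 1.26 in OGTBKO and 4.37 in WT for Srsf5, 1.503 and 3.08 for Clk2, and 1.68 and 2.42 for Hnrnph1. WT 3 was also the library with the highest share of mitochondrial reads (39.4%) and the smallest FPKM denominator (0.790 of its own total), and WT 1 had the second highest sum of skeletal muscle markers and the highest sum of 4 Schwann cell markers (6.67 to 8.81 FPKM in OGTBKO, 25.4 FPKM in WT 1 and 7.93 to 10.6 FPKM in WT 2 to 4). The part of these in the members' levels was not tested.

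The members share features that the choice by symbol did not use. Their longest annotated transcripts were poorer in G and C than those of all genes tested (median 45.0% beside 49.4%), and their genes were longer (median 5686.5 beside 3844 bases of exon). For the protein-coding genes tested, the nearer comparison, the medians were 49.7% and 4356.5 bases. The 11 lower members had a median GC content of 43.0% and a median length of 7003 bases, and the 6 higher members 49.1% and 2998.5 bases. All genes tested followed the same trend: in the lowest of 4 equal bins of GC content 17.7% of all genes were lower and 2.55% higher, and 39 of the 84 members, with 8 of the 11 lower and 2 of the 6 higher ones, lay in that bin. In the longest of 4 bins of length 12.9% of all genes were lower and 2.88% higher, and it held 34 members, 10 of them lower and none higher. In each library, the deviations of genes from their means over the 8 libraries were set against GC content. The slope was 0.0045 to 0.021 log2 per percentage point in the OGTBKO libraries, against -0.014 to -0.0076 in the WT libraries. Such slopes cancel out over the 8 libraries, so a sign is relative to their average and is not a library's own slope. Every OGTBKO library lay above that average and every WT library below it. Base composition therefore moved with the groups, and its part in the members' changes and that of the genotype cannot be told apart here.

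**Figure D4:**
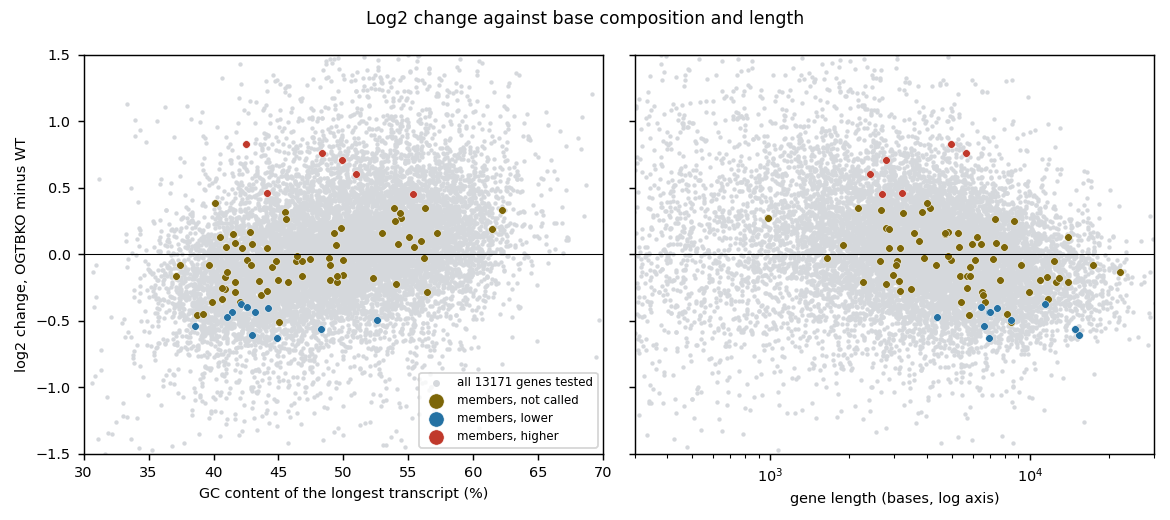
Log2 change, OGTBKO minus WT, of the 13171 genes tested (grey) and of the 84 members (coloured by call) against the GC content of the longest transcript (left) and the gene's exon length on a log axis (right). Genes poor in G and C or long tend to lie below 0, and the blue lower members sit mostly at GC contents around 43.0% and lengths around 7003 bases; 125 genes on the left and 487 on the right lie outside the axes.

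Annotated transcripts were compared next. In GENCODE M21, 45 of the 84 members (53.6%) had a transcript annotated for nonsense-mediated decay, beside 28.5% of the protein-coding genes tested, and 64 (76.2%) had a retained-intron transcript, beside 58.9%. The members also had more annotated transcripts, with a median of 7 beside 5. The kinases had such transcripts in 6 (decay) and 7 (retained intron) of 7 genes, the SR proteins in 9 and 8 of 10, and the SR-related proteins in 5 and 5 of 5. A decay transcript was annotated for 6 of the 11 lower members, for none of the 6 higher ones and for 39 of the 67 not called. The median number of annotated transcripts was 8, 4.5 and 7 in that order. The deposited values are per gene, so spliced, retained and decay forms are summed and a change in their mix could not be measured here.

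Other parts of the splicing machinery were described from lists of genes that are not members. Of 26 tested proteins of the core small nuclear ribonucleoproteins, 5 were higher and 0 lower (7 and 2 at an unadjusted p under 0.05; 5 and 1 with voom weights on back-calculated reads), with a median log2 change of 0.19. Snrnp25, a protein of the minor spliceosome's U11/U12 particle, averaged 8.71 ± 1.58 FPKM in OGTBKO and 2.53 ± 0.672 FPKM in WT (SD, n = 4 each; log2 change 1.62 ± 0.19, adjusted p = 0.00317), and the core Sm proteins Snrpd3 and Snrpd2 had log2 changes of 0.63 ± 0.14 and 0.47 ± 0.12. Snrpd2 lost its call with the trend over GC content and length removed (adjusted p = 0.0927). Of 39 factors of spliceosome assembly and catalysis, 7 were higher and 0 lower (8 and 2 at an unadjusted p under 0.05; 6 and 1 with voom weights), with a median of 0.098, led by the ubiquitin ligase Prpf19 (0.48 ± 0.094), the cyclophilin Ppie (0.72 ± 0.15) and the helicase Dhx38 (0.53 ± 0.11). Among 53 other regulators 2 rose and 7 fell, and the median was -0.11. The lower ones included the muscleblind protein Mbnl1 (-0.58 ± 0.096), the matrix protein Matr3 (-0.47 ± 0.096) and Celf2 (-0.62 ± 0.14). With the trend over GC content and length removed the counts of higher and lower were 4 and 1 for the core, 4 and 0 for assembly, and 1 and 0 for the regulators, whose median was then 0.021. Ppie (adjusted p = 0.0553), Mbnl1 (-0.23, adjusted p = 0.0873), Matr3 (-0.13, adjusted p = 0.409) and Celf2 (-0.32, adjusted p = 0.144) were among those that no longer passed. At an unadjusted p under 0.05 the same fit gave 13 higher and 2 lower for assembly and 3 higher and 3 lower for the regulators. The share of all genes at that cut-off is not given for this fit. As reported, 19.2% of the core and 17.9% of the assembly genes were higher, and 3.77% of the regulators were higher and 13.2% lower. Over all genes tested, 8.11% were higher and 7.46% lower as reported, and 6.24% and 4.32% with the trend removed.

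Of 14 genes of the exon junction complex and nonsense-mediated decay, 2 were higher and 1 was lower. These were 14.3% and 7.14% of the list, beside 8.11% and 7.46% of all genes tested. Eif4a3 and Magoh, the partners of Rbm8a in the junction complex, averaged 19.6 ± 1.78 and 19.2 ± 4.12 FPKM in OGTBKO, against 13.5 ± 2.30 and 12.9 ± 1.68 FPKM in WT (SD, n = 4 each), log2 changes of 0.54 ± 0.14 (adjusted p = 0.0325) and 0.54 ± 0.15 (adjusted p = 0.0443). Magohb, the paralog of Magoh, and Casc3, a further subunit of that core, did not pass (log2 changes 0.16 ± 0.19, adjusted p = 0.599, and -0.15 ± 0.090, adjusted p = 0.293; both were named after their values were seen). With the trend over GC content and length removed Magoh and Rbm8a kept their calls while Eif4a3 had an adjusted p of 0.118. With the library total as denominator none of Rbm8a, Magoh and Eif4a3 passed (adjusted p 0.0678, 0.0607 and 0.0777, in that order). Smg1, the kinase that starts nonsense-mediated decay, averaged 4.51 ± 0.0723 FPKM in OGTBKO and 7.29 ± 0.488 FPKM in WT (log2 change -0.64 ± 0.084, adjusted p = 0.00422). Of 9 other kinases that act on splicing factors, Dyrk2 was lower (-0.71 ± 0.13), Dyrk1b was higher (0.60 ± 0.17) and Cdk11b did not pass (0.31 ± 0.10, adjusted p = 0.0705). Each direction made 11.1% of these kinases, beside 8.11% higher and 7.46% lower of all genes tested. With the trend over GC content and length removed Dyrk2 was -0.61 (adjusted p = 0.0179), while Dyrk1b was 0.34 (adjusted p = 0.178) and lost its call, so that 0 of the 9 were higher and 1 was lower (1 and 1 at an unadjusted p under 0.05). Among 4 RNAs known to stay in the nucleus, Snhg11 was higher, at 2.01 ± 0.591 FPKM in OGTBKO and 0.503 ± 0.162 FPKM in WT (log2 change 1.31 ± 0.20, adjusted p = 0.00662). Malat1, a noncoding RNA of nuclear speckles, averaged 26.9 ± 5.94 FPKM in OGTBKO and 43.6 ± 12.8 FPKM in WT (log2 change -0.66 ± 0.23, adjusted p = 0.0845), and Meg3 had 0.16 ± 0.22.

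**Figure D5:**
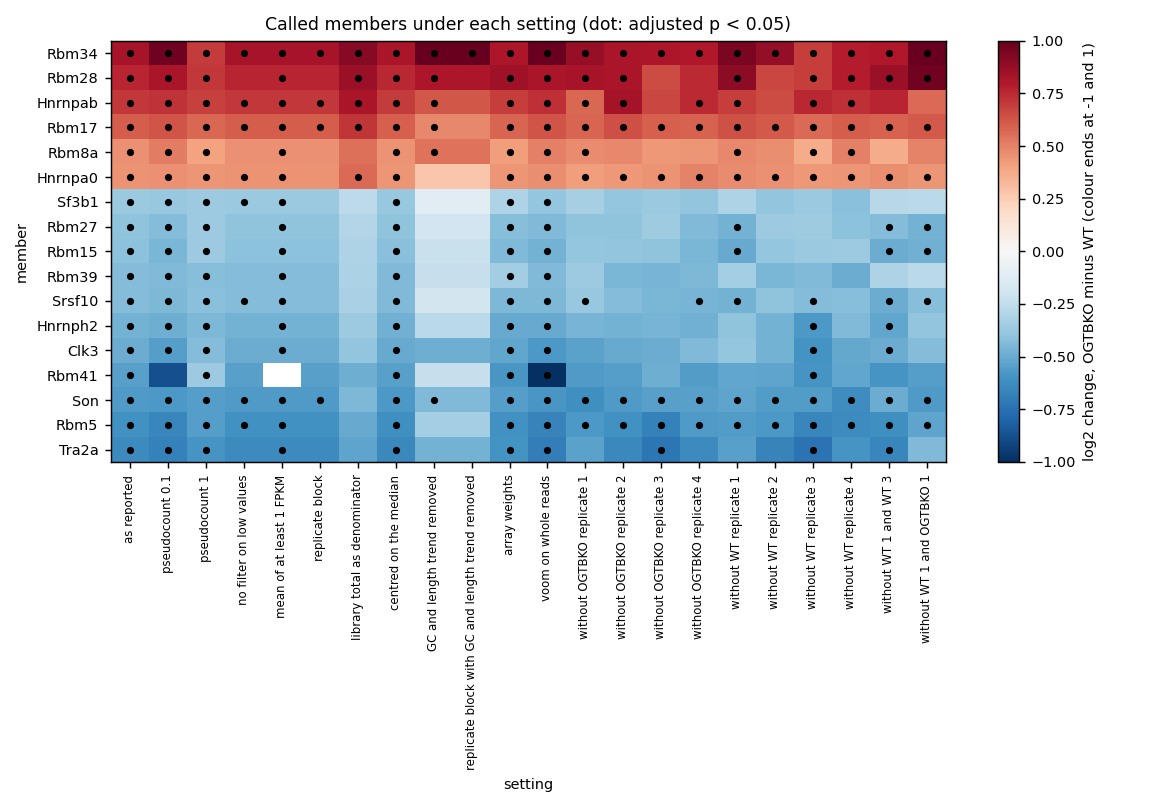
Log2 change, OGTBKO minus WT, of the 17 called members (rows) as reported and under each of the 21 alternative settings (columns); colour is the change, limited to -1 and 1, a dot marks an adjusted p under 0.05, and the white cell a gene under that filter. Each member keeps its direction across the row; Rbm34 has a dot in every column, Rbm17 in all but 1 and Son in all but 2.

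Several members have exons that overlap another gene, and no source used here says how reads of shared bases were counted. Beside those named above, 33.1% of the exon bases of Rbm12 are shared with Gm28036 and 30.8% of those of Rbm4b with Gm37206. Among genes under the level, 75.4% of the exon bases of Rbm42 are shared with Gm21982, 66.1% of those of U2af1l4 with Gm49396 and 60.5% of those of Rbm4 with Gm21992. Rbm4, which stood just under the level, measured 0.321, 0.440, 0.372 and 0.276 FPKM in OGTBKO and 0.584, 0.707, 0.765 and 0.495 FPKM in WT.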

How the data were processed

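Total RNA from dissected brown adipose tissue was checked for integrity on a Bioanalyzer before libraries were prepared with a NEBNext Ultra RNA kit, per the labels' protocols. HISAT2 2.0.5, featureCounts 1.5.0-p3, Subread and the mm10 build appear in the submitters' processing notes. Those notes leave the use of strand in counting unstated, so reads of a gene and of an antisense partner may be mixed. All samples carry the same batch value. The authors deposited FPKM values per gene for 54532 genes. Each library's values times gene length were whole multiples of 1 read in 100% of cases (tolerance 0.001), with denominators of 0.790 to 1.13 times the library totals, which means that the deposited values had already been scaled between libraries. A single read in 1 kb of exon was worth 0.0556 to 0.0945 FPKM.

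The analysis took log2(FPKM + 0.5) as deposited, with no scaling added, of the 13171 genes whose mean reached 0.5 FPKM (11338 of them protein-coding); low genes have their changes understated on this scale. The fit was limma 3.58.1 in R 4.3.3, two-sided, with eBayes using a trend of variance on mean and genotype as its only term. Adjustment was by Benjamini-Hochberg across all 13171 genes, and called means an adjusted p under 0.05. Every adjusted p of a gene comes from such a fit. After ±, FPKM means carry the SD over 4 libraries and log2 changes the SE. Sums of markers were compared by an exact permutation test over the 70 assignments. Pairs of libraries within a group differed by a chi-square of 16.0 to 99.6 per degree of freedom, and all were counted separately. The steps were also run on simulated reads. Those reads carried no trend over GC content or length, so they cannot speak to calls that depend on it.

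GC content is that of the longest GENCODE M21 transcript; 99.8% of the gene identifiers were in M21, and 98.3% of those had the same coordinates there. The trend over GC content and length was removed in each library with splines of 4 degrees of freedom. The alternatives were other pseudocounts and filters, another denominator, centring, removal of that trend, a replicate block, library weights, voom weights on the back-calculated reads, and leaving out libraries.

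The members and the lists were chosen with earlier results of these data known. The genes named were Ogt and Oga; all kinases, SR, SR-related and 3' splice site members; the called members and the 4 largest changes in each direction among hnRNP and RBM genes; the 3 smallest p of each other list and any called with a log2 change of at least 1 in size; and the 3 genes nearest the level on each side. Ends of ranges, widest spreads and genes with shared exons were named after their values were seen.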

Additional observations from a re-analysis of the deposited data

Results flagged for a closer look

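Of 172 groups of 4 values (each member, Ogt and Mgea5 in each genotype), 9 held a library set apart from the other 3 by more than Dixon's 95% critical value; chance flags about 1 in 20 groups. WT 1 was the high one for Srrm2 (31.7 FPKM, against 20.6 to 21.4 in the other WT libraries), Hnrnpu (30.6, against 21.8 to 22.7) and Hnrnph3 (6.04, against 3.51 to 3.94). In Hnrnpul1 OGTBKO 1 was high (9.52 FPKM, against 6.70 to 6.92 in the other OGTBKO libraries). OGTBKO 1 was low for Rbm39 (17.2 FPKM, against 20.9 to 21.3) and for Rbm34 (2.92, against 3.36 to 3.44). Within WT, Sf3b2 was high in WT 3 (25.3 FPKM, against 17.1 to 18.3), Rbm12 was high in WT 2 (2.23, against 1.60 to 1.69) and Rbm12b1 was low in WT 4 (0.509, against 0.832 to 0.877).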

How the results depend on the processing

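Every called member kept its direction under each of the 21 alternatives it was tested in, and Rbm34 was the only one that kept its call in all of them. Ogt lost its call with the replicate block and the trend over GC content and length removed (log2 change -0.81, adjusted p = 0.0515). As reported, 2050 genes passed, with 6 members higher and 11 lower. With no filter on low values 1229 of 26825 genes passed (4.58%), with 4 higher and 4 lower members (9.52% of the members). With the library total as denominator 1229 of 13171 genes and 0 lower members passed, and the members' median was 0.033. With the trend over GC content and length removed 1 lower member passed, and with library weights 3516 genes did. Without WT 1 and OGTBKO 1 (added after seeing the data) 5 members were lower. Leaving out 1 library at a time gave 694 to 2115 genes, 3 to 7 higher and 2 to 12 lower members, and 12 of the 17 called members lost their call at least once. Of the members not called, 9 passed under at least 1 alternative, Clk4 and Srpk2 among them. The cause of these changes was not tested, except that fits without a library rest on fewer samples.

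Whether the replicate numbers pair the samples could not be settled from the values. Libraries of the same number had deviations from their group means correlated at 0.220, 0.169, 0.014 and -0.0070 for numbers 1 to 4. The libraries numbered 1 and 2 correlated best with their own number, and those numbered 3 and 4 did not. With the number as a replicate block 888 genes, 3 higher members and 1 lower member passed, and with the replicate block and the trend over GC content and length removed 518 genes, 1 higher and 0 lower (3 members were lower at an unadjusted p under 0.05). The planned edgeR and DESeq2 fits were not run, since the deposited unit is FPKM. Voom weights on the back-calculated reads, added after seeing the data, gave 6 higher and 12 lower members. These were 21.4% of the members, beside 17.6% of all 13171 genes tested (1173 higher and 1149 lower). At this depth and with 4 libraries a group, a member that did not pass is not shown to be unchanged.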
